A study of Saccharomyces cerevisiae with 8 samples.

Results

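Mitochondrial ribosomal proteins are encoded, with 1 known exception in yeast (VAR1), by nuclear genes, are made in the cytosol and are imported into mitochondria. There they assemble with the mitochondrial rRNAs into the ribosome that makes the few respiratory-chain and ATP synthase subunits encoded by mitochondrial DNA. Some of these proteins belong to families found in all ribosomes, some to families shared with bacterial ribosomes, and others occur in mitochondrial ribosomes alone. In budding yeast their loss usually costs the cell respiratory growth, while growth on glucose can go on by fermentation.

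The members were all array features whose deposited gene name begins with MRP followed by a digit, L or S (MRP, MRPL and MRPS genes), without features that carry the suffix -r. The rule found 54 genes, each with 2 spots, of 6336 gene features on the array. All 54 matched a locus of the reference table, none had a second feature with the suffix -r, and none carried the names of several genes. They lie on 12 of the chromosomes. The current ribosomal protein names of the reference table place 37 in the large subunit and 16 in the small subunit. MRP8 has no ribosomal protein name there and was counted in neither subunit. By the same names, 23 members belong to universal families, 12 to families shared with bacteria and 18 to families specific to mitochondria. The genes YNL122C and YNR036C carry the names MRP35 and MRPS12 in the reference table but not in the deposited tables, so the rule left them out.

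The study exposed Saccharomyces cerevisiae BY4741 MATa cells, a haploid laboratory strain, in rich glucose medium to 10 µM of Iztli peptide 1 (IP-1) for 3.5, 7, 15 or 30 min, and harvested untreated BY4741 MATa cells of the same medium beside each. On 1 spotted 2-colour array per exposure, cDNA of IP-1 cells carried Cy5 and cDNA of untreated cells carried Cy3. The 2 samples of an exposure are duplicate spots on its array, which makes them technical replicates, and n = 4 counts arrays, each with its own pair of cultures per the series design text. Every ratio given is the log2 of IP-1 to untreated signal after background correction and loess normalisation, so 0 means equal to genes of the same brightness. No array had the dyes swapped, so a dye effect of a probe and an effect of IP-1 cannot be told apart. Of 32 features named after Arabidopsis genes, 14 passed the test of the mean, all 14 lower in the IP-1 channel. The median log2 ratio of all 32 was −0.32. All 7 MATa marker genes exceeded the upper limit of empty spots in the untreated channel on all 4 arrays, but so did all 4 MATalpha marker genes. What these signals contribute to the members' ratios was not tested.

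Across the 4 exposures MRPL25 was higher in IP-1 cells and MRPS9 was lower, and the other 52 members did not pass the test. MRPL25 averaged a log2 ratio of 1.50 ± 0.37 (SD, n = 4), a 2.84-fold higher level in IP-1 cells than in untreated cells. MRPS9 averaged −0.45 ± 0.23 (SD, n = 4). By limma's moderated test of the mean with Benjamini-Hochberg adjustment over 6152 tested features, 2 of 54 members (3.70%) were called at an adjusted p under 0.05, against 8.91% of all tested features. Of the 54, 1 was called higher, where 2.08% of all features were, and 1 was called lower, where 6.83% of all features were. These counts depend on single arrays: without the 3.5 min array 12 features were called and without the 7 min array 10, with MRPL25 as the only member both times. At an unadjusted p under 0.05, 11 members passed, against 28.2% of all features. Of those 11, 7 were higher (11.9% of all features) and 4 were lower (16.3% of all features).

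**Figure D1:**
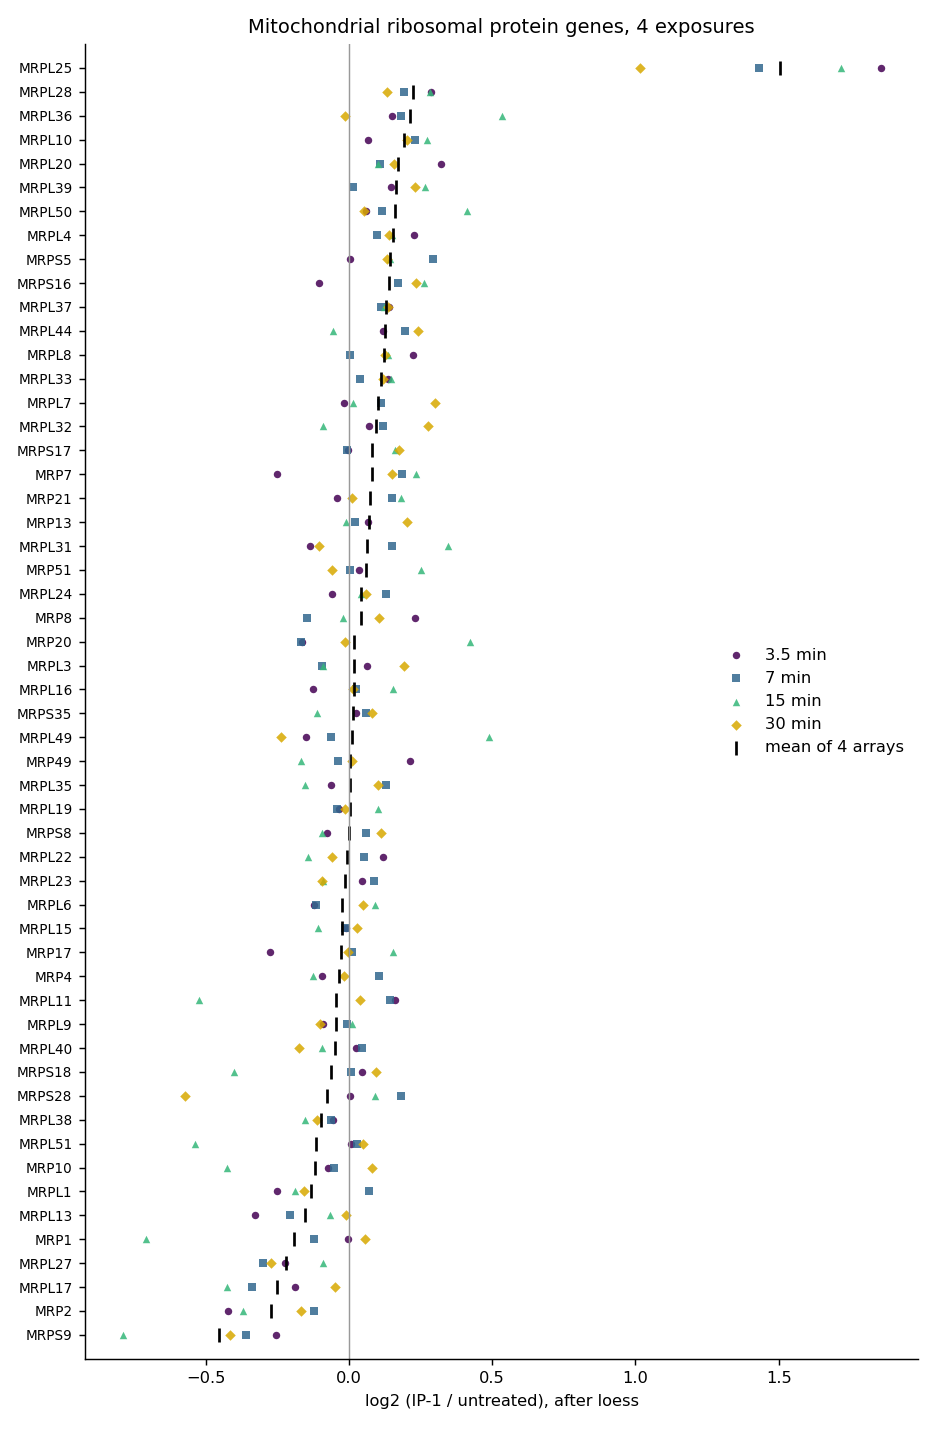
Log2 ratio of IP-1 over untreated (x axis) of each of the 54 members (rows, ordered by mean), with 1 symbol per array and exposure and a bar for the mean of 4 arrays. MRPL25 lies between 1.01 and 1.86, and the means of the other members lie between −0.45 and 0.22.

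MRPL25 (YGR076C, chromosome VII, protein mL59, also called AFO1) encodes a large-subunit protein of the class found in mitochondrial ribosomes alone. At 3.5 min its spots had raw intensities of 550.5 and 548.9 in the IP-1 channel, against 191.0 and 211.6 in the untreated channel. At 7 min they had 386.2 and 359.6 in the IP-1 channel, against 321.9 and 289.8 in the untreated channel. The local background of the untreated channel at 7 min was 185.0 and 175.0, against 80.2 and 78.3 in the IP-1 channel, so the raw intensities understate the gap there. After subtraction of the local background the spots at 7 min held 305.9 and 281.4 in the IP-1 channel, against 136.9 and 114.8 in the untreated channel. At 15 min the raw intensities were 638.3 and 572.5 in the IP-1 channel, against 197.0 and 197.9 in the untreated channel. At 30 min they were 295.7 and 264.2 in the IP-1 channel, against 171.6 and 175.1 in the untreated channel. On every array both IP-1 spots were brighter than both untreated spots, which are technical replicates. These intensities precede normalisation, and the share of all features so separated was not counted. At 30 min the untreated spots lay below the 95th percentile of empty spots of that channel (180.6), so that ratio rests on an untreated signal not separated from empty spots.

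**Figure D2:**
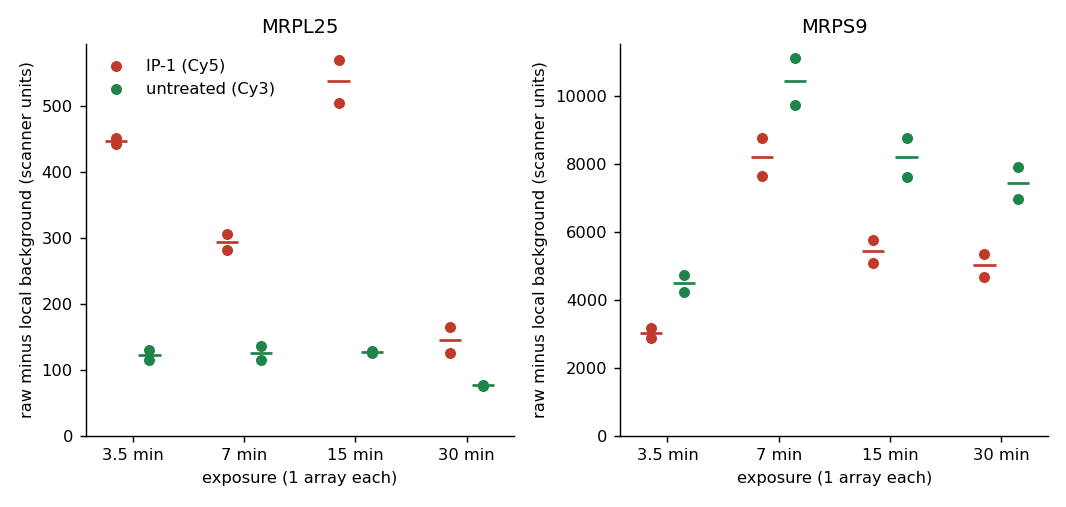
Raw intensity minus local background (y axis, scanner units, from 0) of the 2 spots of MRPL25 and MRPS9 at each exposure, with IP-1 (Cy5) left of untreated (Cy3) and a line at the mean of the spots. Before normalisation, MRPL25 is brighter with IP-1 and MRPS9 is dimmer with IP-1 in both spots at all 4 exposures.

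After loess, the log2 ratios of MRPL25 were, spot by spot, 1.90 and 1.81 in the 3.5 min array, 1.37 and 1.49 in the 7 min array, 1.81 and 1.63 in the 15 min array, and 1.17 and 0.86 in the 30 min array. The spots of an array differed by at most 0.32, at 30 min, which is less than the gap from 0 on any array. As array values these were 1.86, 1.43, 1.72 and 1.01 in the order of the exposures, with a limma adjusted p of 0.0024 for their mean (SE 0.13). Of all 6152 tested features MRPL25 ranked 2nd on the mean, behind AGA1, a cell-surface agglutinin that cells make in response to mating pheromone. It ranked 3rd at 3.5 min, 2nd at 7 min, 8th at 15 min and 3rd at 30 min. Since MRPL25 was singled out with its high ratio known, these ranks describe it and test nothing.

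Both spots of MRPL25 were at least 2-fold higher in IP-1 cells at 3.5, 7 and 15 min. Over all tested features 0.309%, 0.0488% and 0.439% passed that limit upward at these exposures. At 30 min only 1 of its spots passed, and 0.0163% of all features did so with both spots. No other member passed the limit in either direction at any exposure, while 0.0325%, 0.0325%, 0.878% and 0.00% of all features were lower past it in the order of the exposures. The slope of MRPL25 on log2 of minutes was −0.21 per doubling of the exposure (SE 0.088, unadjusted p 0.044, limma adjusted p 1.00). No feature passed the adjusted slope test (0.00%), and 61 had an unadjusted p under 0.05 (0.992%). MRPL25 was the only member among those 61. Without the 15 min array 15 features passed the adjusted slope test and without the 30 min array 30 did, with 0 members among them. The slope of MRPL25 was −0.26 without the 15 min array (limma adjusted p 0.0545) and −0.061 without the 30 min array (limma adjusted p 0.939). Without the 3.5 or the 7 min array it was −0.19 and −0.24, so its size depends most on the 30 min array. The column headings of the deposited tables number the arrays T2, T3, T4 and T1 in the order of the labelled exposures. With the times taken in the order of those numbers the slope of MRPL25 was 0.16, so its sign depends on which order is right.

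The gap between MRPL25 and the rest was wide on every array. MRPL25 was set apart with its high ratio known, so the gaps describe it and test nothing. MRPL25 stood 1.86, 1.39, 1.70 and 0.97 above the median of the other 53 members on the log2 scale, in the order of the exposures. The next highest member was MRPL20 at 3.5 min (0.32), MRPS5 at 7 min (0.29), MRPL36 at 15 min (0.53) and MRPL7 at 30 min (0.30). A different gene thus came second at each exposure, and none came within 0.71 of MRPL25 on the same array.

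Genes beside MRPL25 did not share its ratio. On the chromosome its neighbours are PRP38, a splicing factor gene, and PEX8, a peroxisome biogenesis gene, with mean log2 ratios of −0.16 and −0.19. Neither was called (limma adjusted p 0.167 and 0.104). The features printed next to it on the array were HIS2 (0.12), YFR018C (0.05), MRP13 (0.07), CTM1 (−0.04) and BIG1 (0.08), none of them called. MRP13 is itself a member, a small-subunit protein gene on the same chromosome. The 195 tested features of its print block had a median mean ratio of 0.04. Of the 195, 12 were called, 4 of these higher, where 8.91% of all features were called and 2.08% were called higher.

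MRPS9 (YBR146W, chromosome II, protein uS9m) encodes the mitochondrial form of a universal small-subunit protein. In bacteria its tail reaches the tRNA in the P site. At 3.5 min its background-subtracted spots held 3157 and 2885 in the IP-1 channel, against 4742 and 4242 in the untreated channel. At 7 min they held 7649 and 8763 in the IP-1 channel, against 9739 and 11113 in the untreated channel. Both IP-1 spots lay below both untreated spots on these arrays. At 15 min the spots held 5760 and 5087 in the IP-1 channel, against 8768 and 7619 in the untreated channel. At 30 min they held 5345 and 4684 in the IP-1 channel, against 7906 and 6976 in the untreated channel. The groups did not overlap at 15 or 30 min either. These signals precede normalisation, and the share of all features so separated was not counted. The median raw log2 ratio of gene features was itself below 0 on every array, at −0.15, −0.73, −0.04 and −0.10. The raw log2 ratios of MRPS9 were −0.55, −0.36, −0.59 and −0.55, so at 7 min MRPS9 lay above that median. After loess its ratios were −0.25, −0.36, −0.79 and −0.42 (mean limma adjusted p 0.0249), the lowest member at 7 and 15 min. The call was lost in 4 of 16 alternatives. With median centring in place of loess the mean was −0.29 (limma adjusted p 0.126). Its array values were then −0.33, −0.03, −0.55 and −0.25, so the 7 min value lay near 0. MRPS9 was then the lowest member on neither array, with MRPL17 at −0.51 at 7 min and MRP1 at −0.57 at 15 min. After loess, the mean of MRPS9 without the 3.5 min array was −0.52 (limma adjusted p 0.0940), and without the 7 min array −0.49 (limma adjusted p 0.112).

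**Figure D3:**
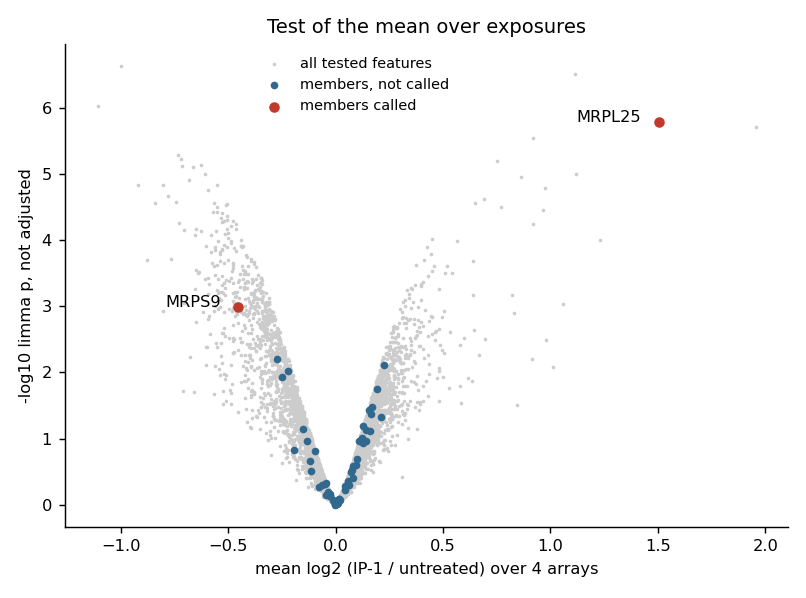
Mean log2 ratio over 4 arrays (x axis) against −log10 of the unadjusted limma p (y axis) for all 6152 tested features (grey), the 52 members not called (blue) and the 2 members called (red). MRPL25 lies at 1.50 among the highest features, and MRPS9 at −0.45 inside the cloud of features that were lower.

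Large-subunit genes next to MRPL25 in the order of means had small positive ratios and were not called. MRPL28 (mL40, specific to mitochondria) had 0.29, 0.19, 0.28 and 0.13, a mean of 0.22 (limma adjusted p 0.0659). All 4 arrays were above 0. Its spots were dim, and at 7 min they held 77.1 and 60.4 above background in the IP-1 channel, against 105.1 and 98.3 in the untreated channel, before that array's loess correction. MRPL36 (bL31m, whose bacterial relative bridges the subunits) had 0.15, 0.18, 0.53 and −0.01, a mean of 0.21 (limma adjusted p 0.172). The 15 min array stood above its other 3. MRPL10 (uL15m) had 0.07, 0.23, 0.27 and 0.20, a mean of 0.19. MRPL20 (mL58) had 0.32, 0.11, 0.10 and 0.16, a mean of 0.17. Its value at 3.5 min averaged spots of −0.08 and 0.72, which disagreed more than the spots of any other member on that array. MRPL39 (bL33m) had 0.15, 0.01, 0.26 and 0.23, a mean of 0.16.

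At the low end, after MRPS9, came MRP2 (uS14m), a universal protein of the small-subunit head. It had −0.42, −0.12, −0.37 and −0.17, a mean of −0.27 (limma adjusted p 0.0581). MRPL17 (mL46) had −0.19, −0.34, −0.43 and −0.05, a mean of −0.25 (limma adjusted p 0.0819). MRPL27 (mL41) had −0.22, −0.30, −0.09 and −0.27, a mean of −0.22 (limma adjusted p 0.0734). These 3 were below 0 on all 4 arrays and did not pass the test. MRP1 (mS43), a small-subunit protein specific to mitochondria, had 0.00, −0.12, −0.71 and 0.06, a mean of −0.19 with an SD of 0.35. MRPL13 (mL50) had −0.33, −0.21, −0.07 and −0.01, a mean of −0.15.

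In all, 17 of 54 members had the same sign on all 4 arrays, against 36.9% of all features. Of these, 11 were above 0 throughout (17.5% of all features) and 6 below 0 throughout (19.4%). Both spots kept 1 sign on all 4 arrays in 10 members, against 20.5% of all features.

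The 53 members other than MRPL25 centred on 0 at each exposure. Their median log2 ratios were 0.00, 0.04, 0.01 and 0.05 in the order of the exposures, and 0.01 for the mean, which is also the median of all 6152 features (0.01). The SD of their means was 0.13, against 0.20 for all tested features. With MRPL25 included the SD over all 54 members was 0.24, so the order of these SDs turns on this 1 gene, which was left out for its ratio. Of the 53, 50 (94.3%) had a mean within 0.25 of 0, against 84.0% of all features. The 3 outside were MRPS9, MRP2 and MRPL17, all below. By exposure the SDs of the 53 were 0.16, 0.14, 0.28 and 0.17, those of all 54 members 0.30, 0.24, 0.37 and 0.21, and those of all features 0.25, 0.22, 0.35 and 0.18. In each of the 3 sets the SD was widest at 15 min.

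**Figure D4:**
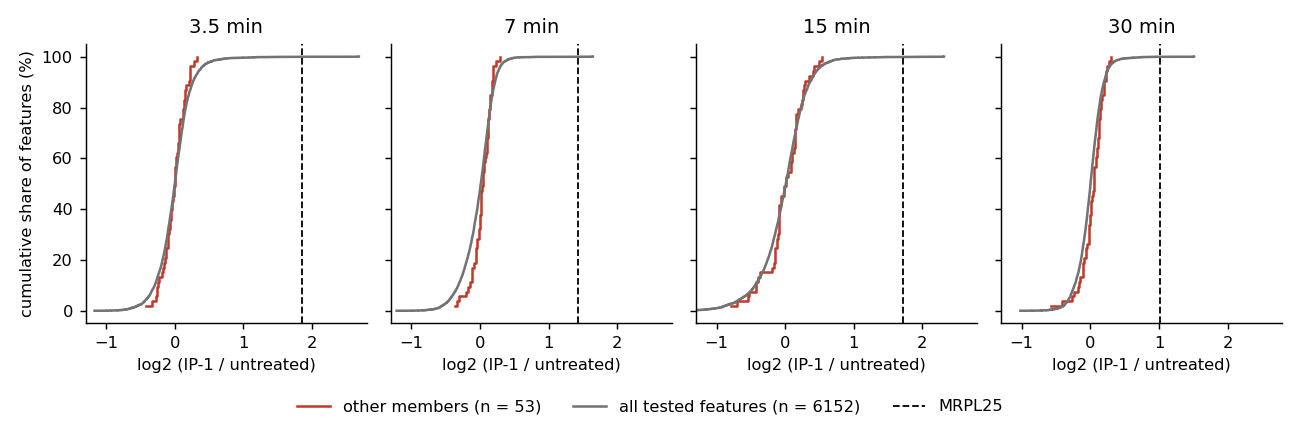
Cumulative share of features (y axis, %) up to each log2 ratio of IP-1 over untreated (x axis) at the 4 exposures, for the 53 other members (red) and all 6152 tested features (grey), with MRPL25 as a dashed line. The medians of the 53 lie between 0.00 and 0.05, and MRPL25 lies right of all of them at each exposure.

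As with all tested features, the members varied most on the 15 min array. On it 6 of the 53 lay beyond −0.4 (MRPS9, MRP1, MRPL51, MRPL11, MRP10 and MRPL17) and 4 lay beyond 0.4 (MRPL36, MRPL49, MRP20 and MRPL50), where 11.6% and 8.11% of all features did. In either direction, 1, 0, 10 and 2 of the 53 were that far from 0 after loess in the order of the exposures. Of all features 8.96%, 7.35%, 19.7% and 3.09% were. With each array centred on its median in place of loess, 3, 8, 12 and 1 of the 53 were that far in the order of the exposures, where 12.6%, 14.6%, 27.1% and 4.24% of all features were, so the contrast of the 15 min with the 7 min array depends on the scaling. MRPL51 (mL43) was at −0.54 and MRPL11 (uL10m, whose relatives carry the ribosome's stalk) at −0.52 at 15 min, while their other 3 values lay between 0.01 and 0.16. MRP10 (mS37) was at −0.43 there and MRPS18 (uS11m) at −0.40, against values between −0.07 and 0.09 on the other arrays. MRPL49 (bL21m) was at 0.49 and MRP20 (uL23m, a protein of the tunnel exit) at 0.42, both with 3 values below 0 elsewhere.

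Several of these 15 min values depend on the normalisation too. With median centring, MRPS18 was at −0.08, MRP10 at −0.07 and MRPL11 at −0.32 at 15 min. MRP1 at −0.57, MRPS9 at −0.55, MRPL17 at −0.52 and MRPL51 at −0.50 stayed beyond −0.4 with median centring. Upward, 8 of the 53 lay beyond 0.4 with median centring, against 4 after loess. MRPL36 (0.86), MRPL50 (0.67) and MRPL49 (0.42) were among both, MRP20 (0.26) was not among the 8, and MRPL31 (0.71), MRPL10 (0.64), MRPL16 (0.48), MRP17 (0.43) and MRPS17 (0.42) were among the 8 alone. The cytosolic ribosomal protein genes had a median ratio of 0.39 at 15 min (99 tested), against 0.01 for the 53 other members. Whether loess against genes of equal brightness moved the bright members there was not tested.

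At 30 min 2 members lay beyond −0.4, MRPS28 and MRPS9 (−0.42), where 1.80% of all features did. MRPS28 (uS15m, whose bacterial relative binds the small-subunit rRNA) had 0.00, 0.18, 0.09 and −0.57, with both 30 min spots low, at −0.71 and −0.44. Its mean of −0.08 was not called (limma adjusted p 0.713), and without the 30 min array the mean was 0.091. MRPL25, MRP1 and MRPS28 had the widest ranges over the arrays, 0.84, 0.76 and 0.75. MRPL37 (mL54) had the narrowest, 0.026, with ratios of 0.14, 0.11, 0.12 and 0.14. Across the 53, the ratios of 2 arrays correlated with Pearson's r between 0.18 and 0.44 over genes, against 0.31 to 0.60 over all features. The arrays share the probes and the dye orientation, and genes are not independent replicates, so these values are a description.

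Both subunits centred near 0. The 36 large-subunit members other than MRPL25 had a median mean ratio of 0.02, with 23 above 0 and 13 below. The 16 small-subunit members had a median of −0.01, with 7 above 0 and 9 below. Each subunit had 1 called member, MRPL25 in the large and MRPS9 in the small. Of the 12 members shared with bacteria, 11 had a mean above 0 (median 0.09), where 52.5% of all tested features did. By exposure 6, 11, 11 and 8 of the 12 were above 0, with medians of 0.00, 0.12, 0.24 and 0.06, where 50.3%, 52.6%, 51.4% and 50.8% of all features were above 0. None of the 12 was called. MRP17 (bS6m) was the 1 member of the 12 with a mean below 0, at −0.03. The median of the 12 stayed between 0.08 and 0.10 above that of all features under all 6 scalings tried. The 23 universal members had a median of −0.01, with 9 above 0, and 10, 15, 12 and 11 above 0 by exposure. Of the 17 mitochondria-specific members other than MRPL25, 9, 9, 4 and 13 were above 0 by exposure. Their means had a median of 0.00 and included both high and low genes, MRPL28 at 0.22 and MRPL17 at −0.25. MRPL25 thus stood 1.28 above the next member of its own class, which was also the next of all members.

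**Figure D5:**
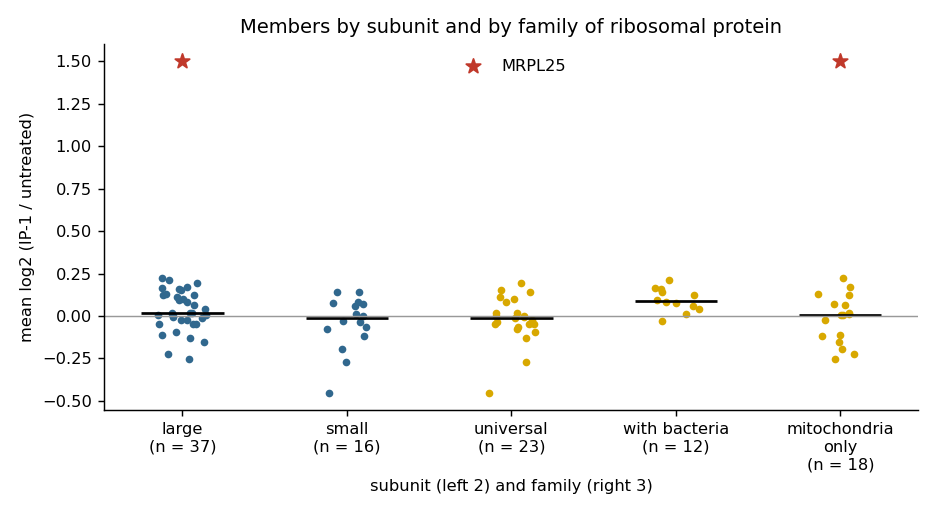
Mean log2 ratio over 4 arrays (y axis) of members by subunit (blue) and by family (yellow), with 1 point per gene, a line at the median without MRPL25 and MRPL25 as a star. The medians lie between −0.01 and 0.09, and MRPL25 stands at 1.50.

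Both genes that carry MRP names in the reference table alone were tested outside the 54. MRP35 had −0.30, 0.11, 0.02 and 0.15, and MRPS12 had −0.11, −0.17, −0.43 and −0.15. Neither was called (limma adjusted p 0.968 and 0.108). MRP8, which the deposited table describes as a putative mitochondrial ribosomal protein, had 0.23, −0.15, −0.02 and 0.11, a mean of 0.04.

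A chosen list of 60 other mitochondrial translation genes outside the 54, without MRP35 and MRPS12, showed 1 gene higher and 2 lower of 59 tested. Of all tested features 2.08% were called higher and 6.83% lower. The median of the 59 was −0.01. MBA1, which docks the mitochondrial ribosome at the inner membrane, failed the filter on dim spots. Of 22 further tested ribosome genes (RSM, IMG and others), none passed the test of the mean by limma, from YML6 at −0.32 to MHR1 at 0.17. VAR1, the ribosomal protein encoded by mitochondrial DNA, had −0.10, 0.06, −0.23 and −0.04. None of 11 translation factors passed, from the GTPase gene GUF1 at −0.49 to MEF2 at 0.15. Among 13 aminoacyl-tRNA synthetases, MSE1, which charges glutamate, was higher (0.38, 0.19, 0.33 and 0.19, limma adjusted p 0.0431). Among 13 translational activators, 2 were lower. CBS2, an activator of cytochrome b translation, had −0.26, −0.49, −0.50 and −0.25 (limma adjusted p 0.0226), and AEP1, an activator of ATP synthase subunit 9 synthesis, had −0.31, −0.29, −0.16 and −0.30 (limma adjusted p 0.0393). No gene of these lists approached the ratio of MRPL25.

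The cytosolic ribosomal protein genes, 99 tested, had medians of 0.27, 0.06, 0.39 and −0.12, against 0.00, 0.04, 0.01 and 0.05 for the 53 mitochondrial members other than MRPL25. Of the 99, 5 were called higher and 3 lower, where 2.08% and 6.83% of all tested features were. At 7 min the medians of both sets were close, and the difference between the sets was not tested.

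Dim signals limited part of these values. Members exceeded the local background by more than 2 of its SDs in the IP-1 channel in 52 to 54 of 54 cases per array, and in the untreated channel in 54 of 54. Per array, 41 to 53 of 54 members exceeded the 95th percentile of empty spots in the IP-1 channel, and 42 to 53 did in the untreated channel. On 1 or more arrays 10 members did not exceed it with both spots in either channel (MRPL27, MRPL49, MRPS5, MRPL6, MRP21, MRP20, MRPL28, MRPL24, MRP4 and MRPL4). The offset of the background correction draws the ratios of such dim spots toward 0. The SD between the 2 spots of a member was 0.11, 0.08, 0.10 and 0.11 on the 4 arrays, and the number of arrays limits the precision.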

How the data were processed

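Per the labels, the samples hold cDNA from IP-1 cells (Cy5) and untreated cells (Cy3), read as 2 spots per gene on 4 arrays. Per the file headers, the deposited scanner tables give mean raw intensity and the mean and SD of local background intensity per spot. The deposited series matrix holds log10 ratios of raw Cy5 over raw Cy3 intensity, as its agreement with the scanner tables within 4.98e-07 shows, not centred. No source used here names the scanner or its software.

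R 4.3.3 with limma 3.58.1 applied normexp background correction (offset 50) and global loess (span 0.3, 4 iterations) and averaged spots. Testing required both spots of a feature to exceed background by 2 background SDs in the same channel, which could differ between arrays, on each of the 4 arrays. This left 6152 of 6336 features, with all 54 members. The mean over arrays and the slope on log2 minutes were tested by lmFit followed by eBayes (two-sided, with Benjamini-Hochberg adjustment over 6152 features, adjusted p under 0.05). Each exposure had 1 array, so single exposures were described without a test, and the p-values rest on the spread between exposures. Figures were drawn in Python 3.11.15 using matplotlib 3.10.9.

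Members, lists and classes were chosen with earlier results of these data known. Named were MRPL25, called members, the 6 highest and 6 lowest means, the 2 highest and 2 lowest per array, the 3 widest ranges, and genes beside MRPL25; other members named at 15 min, MRP17 and MRPL37 were picked after their values were seen. Loci were named through the R64 reference table. Sequences and coordinates of the probes were not used here.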

Additional observations from a re-analysis of the deposited data

How the results depend on the processing

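MRPL25 was called by limma in all 16 alternatives, with mean log2 ratios between 1.01 and 1.92, adjusted p between 6.1e-06 and 0.033, and rank 2 of all features in each. MRPS9 stayed below 0 in all 16 (−0.54 to −0.29) and was called in 12. It was lost with median centring, with the deposited log ratios (−0.51, limma adjusted p 0.183), and without the 3.5 or the 7 min array.

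Members called numbered 1 with median centring (MRPL25), 1 with the deposited ratios (MRPL25), 3 with loess within print blocks (MRPL25, MRPS9 and MRP2, limma adjusted p 0.0338), 5 with a normexp offset of 0 (MRPL25, MRPL27, MRPL28, MRPL4 and MRPS9), 6 with a variance trend (MRP2, MRPL17, MRPL25, MRPL27, MRPL28 and MRPS9), and 1 to 2 with any array or spot left out. With the spot number as a replicate block, and arrays as a random block (correlation 0.68), 4 members were called (MRP2, MRPL17, MRPL25 and MRPS9), and 782 features in all. That fit treats spots of 1 array as repeated measures, and the spot number pairs no cultures. Features called numbered 304 with median centring, 59 with the deposited ratios, 263 with loess on raw intensities, 761 with the trend and 10 to 575 with 1 array or spot left out (12 without 3.5 min, 10 without 7 min), against 548 as reported. Of the calls, 23.4% were higher as reported and 11.9% with the deposited ratios. The slope test called 0 members in every alternative, and with the times in the order of the heading numbers, chosen after seeing the data, 9 of 54 members had an unadjusted p under 0.05, against 13.1% of all features.

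Members past 2-fold in both spots numbered 2 at 15 min with loess within print blocks (MRPS9 was added, lower), 7 at 7 min with the deposited ratios (all lower, on an array with a median log2 ratio of −0.73), 0 at 7 min with loess on raw intensities, and 1 at 30 min with an offset of 0 or without the second spot (MRPL25 each time). The median of the members other than MRPL25 was 0.049 with print-block loess and −0.208 with the deposited ratios (−0.23 for all features). It was 0.017 to 0.037 with 1 array left out, highest without 15 min, and 0.0041 to 0.026 in the rest. The 0.0041 came with testing limited to features above the empty spots, which left 44 members. Testing limited to features above background in both channels left 51. With the deposited ratios, which carry the −0.23, MRPL28 (−0.14), MRPL20 (−0.16), MRPL39 (−0.12), MRPS5 (−0.17) and MRPL7 (−0.26) lay below 0. MRPL7 was −0.0091 to 0.21 with 1 spot left out, lowest without the first, and MRPS28 0.091 without 30 min. Causes other than fewer arrays or spots were not tested. In the IP-1 channel the median signal over background was lowest at 30 min (1.91).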
